A study of Mus musculus with 8 samples.

Results

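The genes described here are 50 components of the bone morphogenetic protein (BMP), activin and transforming growth factor β (TGFβ) pathways, taken from a fixed list of mouse gene symbols and sorted by role into ligands, proteins that process or store ligands, extracellular antagonists, receptors, Smads with their corepressors, and target genes. The list was drawn up with earlier results of these data known, and a gene was kept where at least 3 of the 8 libraries held at least 10 counts. This left 47 of the 50 genes, among 12137 genes tested of 55367 in the count table. Id4 was the member closest to this limit on the inside, with 10 or more counts in exactly 3 libraries, both CCM libraries and LA replicate 2 (conditions as below). The 3 genes outside this limit were Chrdl1, with no library at 10 counts, and Gdf10 and Bmp2, with 0 counts in every library.

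RNA came from 1 cell line of fibroblastic reticular cells (FRC), the stromal cells that build the scaffold of the lymph node, which was derived from lymph nodes of p53ER/ER C57BL/6 mice, so that every library shares that genotype. The cells were kept for 4 days in tumor cell-conditioned medium (TCM), which is RPMI taken from B16.F10 melanoma cultures, in control conditioned medium (CCM) from the FRCs themselves, in RPMI with 15 mmol/L lactic acid (LA), or in RPMI with water (vehicle), all with 2% FBS, and each condition has 2 libraries. The comparisons ask what tumor-derived soluble factors do to these stromal cells (TCM against CCM) and what lactic acid does alone (LA against vehicle). The replicates were described as biological, but all of them come from the same line, so P values cover the spread between cultures of that line only.

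BMPs, activins and TGFβs are secreted dimers that bring together type I and type II receptor kinases. BMP receptors phosphorylate Smad1, Smad5 and Smad9, TGFβ and activin receptors phosphorylate Smad2 and Smad3, and both groups enter the nucleus with Smad4, where the Id genes are classical BMP targets and Tgfbi is a TGFβ-induced gene. Outside the cell, antagonists such as Noggin, Gremlin and Follistatin trap the ligands, and latent TGFβ is held by LTBP proteins in the matrix or by GARP, the product of Lrrc32, on the cell surface. In fibroblasts and other stromal cells, TGFβ is best known as an inducer of matrix synthesis.

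Counted reads per library lay between 8232889 and 14107964, and 3 counts, taken as the floor of detection, corresponded to 0.211 to 0.354 CPM. Levels are in CPM, the counts of a gene scaled to a common library total after TMM normalization. Fold changes, given as log2 FC with the SE, and adjusted P values come from edgeR's quasi-likelihood test over all 12137 genes with Benjamini-Hochberg adjustment, and calls needed an adjusted P below 0.05 together with a log2 FC of more than 0.39 in size. With 2 libraries against 2, an exact permutation test of a single gene cannot go below a 2-sided P of 0.333. Of 11 FRC markers, Pdpn, Vcam1, Pdgfra, Pdgfrb, Ltbr and Col1a1 were expressed in every library, whereas Thy1, Icam1 and Il7 stayed at or under 1.83 CPM, Ccl19 had a count in 1 library only and Ccl21a had none. The leukocyte markers Ptprc, Cd3e, Itgam and Adgre1, the lymphatic marker Prox1, the epithelial marker Epcam and the melanoma marker Tyr were at 0 in all 8 libraries. Of the same lists, Lyz2, a leukocyte marker, held 8.74 to 22.4 CPM and was not called for TCM against CCM (0.39 ± 0.22, adjusted P = 0.234) or LA against vehicle (−0.63 ± 0.23, adjusted P = 0.23). The endothelial marker Tek was lower with TCM, at 0.947 and 0.654 CPM against 3.12 and 2.67 CPM with CCM (−1.84 ± 0.52, adjusted P = 0.0282), and Pecam1, Cdh5, Kdr and Lyve1 had at most 1.31 CPM. Summed over 6 markers each, the leukocyte list held 13.5 and 22.4 CPM under TCM and 8.74 to 16.6 CPM elsewhere, and the endothelial list 2.63 and 2.83 CPM under TCM and 3.19 to 6.47 CPM elsewhere. The 6 melanoma markers together summed to 1.64 to 1.89 CPM with TCM and to 0.954 to 1.77 CPM in the other libraries, with Tyrp1 counted only under TCM, at 0.632 and 0.327 CPM. The 4 epithelial markers summed to 0.632 and 0.872 CPM under TCM and to 1.77 to 4.53 CPM elsewhere, nearly all of it Cdh1, which was lower with TCM (−1.80 ± 0.38, adjusted P = 0.00632). The part of these RNAs in the results was not tested.

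With TCM, ligand, antagonist and target genes changed, along with a few receptor and Smad genes. Of the 47 genes, 21 (44.7%) passed the test between TCM and CCM, 9 of them higher and 12 lower with TCM, where 19.1% of all genes tested were called, 8.83% higher and 10.2% lower. Since the list was drawn up with earlier results of these data known, such shares are not evidence of enrichment, here or in the later comparisons. In the wider list of pathway genes described below, 20% were called. Calls fell on 7 of 8 ligands, 5 of 8 antagonists and 4 of 5 targets, but on 2 of 6 genes of ligand processing and latency, 2 of 10 receptors and 1 of 10 Smads and corepressors. The median log2 FC of the members was 0.01, the same to 2 decimals with Id4 and Tgfbi set at their lower bounds, and the median over all genes was 0.00. The median size of change without regard to sign was 0.44 for the members and 0.23 for all genes. Scaling by total counts moved the median of all genes in this comparison by −0.14 and the share of higher genes among all calls from 46.3% to 24.2%; the members were then 6 higher and 15 lower.

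LA changed fewer of these genes and lowered all that it changed. Of the 47 genes, 6 (12.8%) were called between LA and vehicle, all lower, where 2.55% of all genes tested were called and 1.24% were lower. They were the ligand gene Gdf6, Lrrc32, the antagonists Bmper, Fst and Nbl1, and the receptor gene Tgfbr2. The members had a median log2 FC of −0.02, against 0.00 for all genes, and a median size of 0.20, against 0.14. Between CCM and vehicle, 1 of the 47 genes (2.13%) was called, Inhbb, where 1.3% of all genes were. The 2 main comparisons share no library. They called 5 members in common, which is 23.8% of the TCM calls and 83.3% of the LA calls. Of these, 3 moved in the same direction (Bmper, Nbl1 and Tgfbr2) and 2 in opposite directions (Gdf6 and Lrrc32). The overlap over all genes was not counted here, so these shares are not read as particular to the members. In the authors' own calls over all genes, most genes changed by LA were also changed by TCM. When the TCM effect was tested against the LA effect in the same model, 17 of the 47 members (36.2%) differed, 9 with the more positive value for TCM and 8 with the more negative, where 10.4% of all genes did, 4.45% and 6% in these directions. With the controls exchanged, 17 members were called for TCM against vehicle, where 17.5% of all genes were, and 3 for LA against CCM (Gdf6, Lrrc32 and Bmper, all lower), where 0.626% of all genes were.

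**Figure D1:**
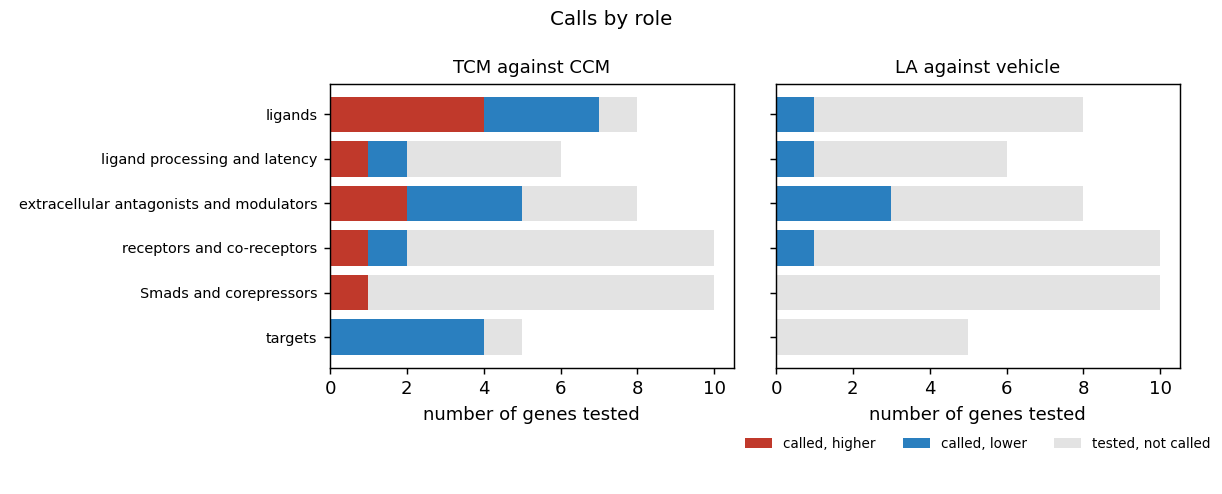
Bars count the genes of each role that were tested, split into those called higher, called lower and not called (x axis, number of genes), for TCM against CCM on the left and LA against vehicle on the right. With TCM, 7 of 8 ligands and 4 of 5 targets were called, and with LA only lower calls appear, 6 in all.

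**Figure D2:**
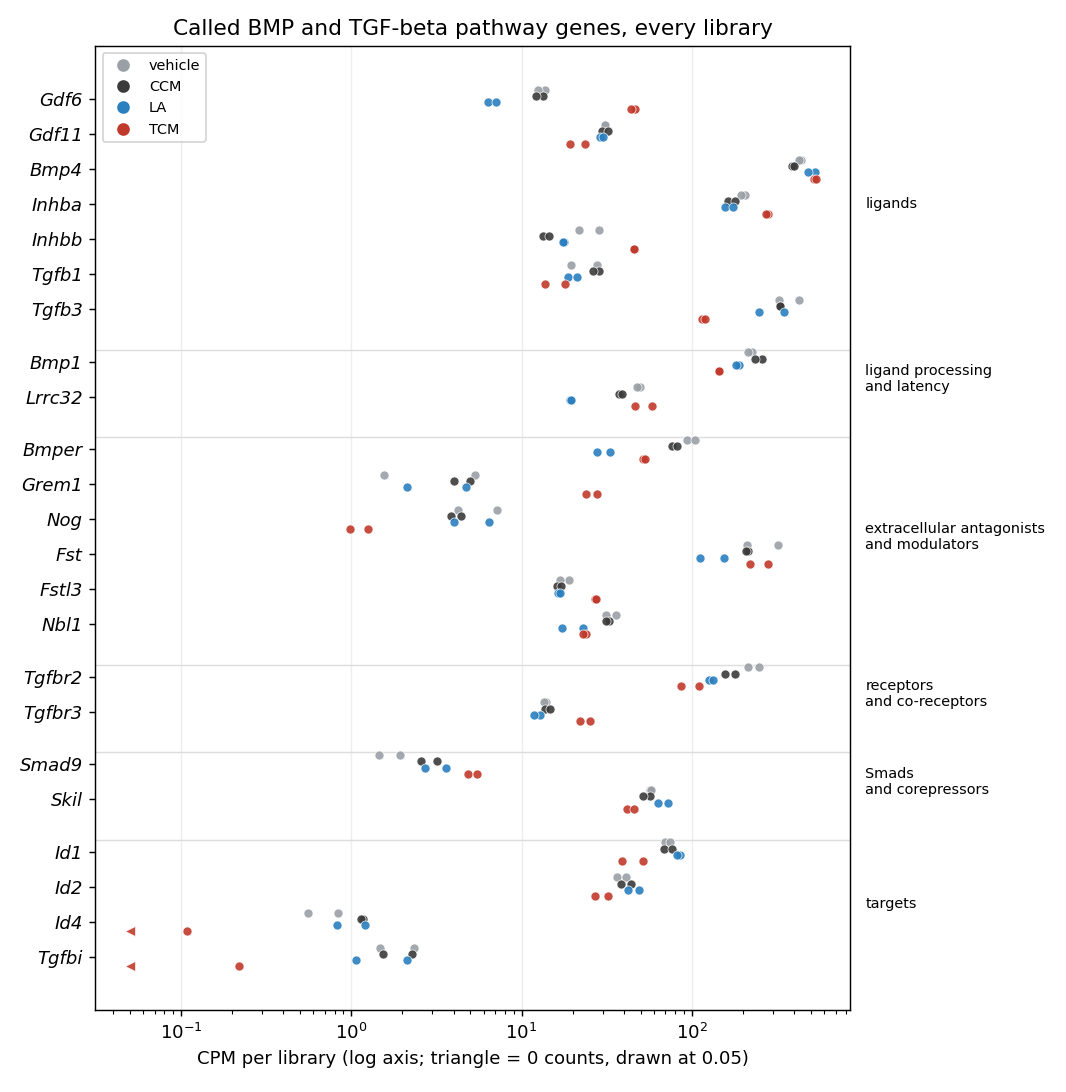
Each point is the level of 1 library in CPM on a log axis, with 2 points per condition, for the 23 genes called in at least 1 of the comparisons TCM against CCM, LA against vehicle, CCM against vehicle and the difference between the first 2, grouped by role. Triangles mark libraries with 0 counts. TCM points of Gdf6, Inhbb and Grem1 lie to the right of all others, those of Tgfb3, Nog, Id4 and Tgfbi to the left, and LA points of Bmper and Lrrc32 to the left.

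Among the ligands, TCM raised the genes of a BMP-family factor and of the activin subunits and lowered those of TGFβ1, TGFβ3 and Gdf11. Gdf6 (chr4:9844372-9862345, plus strand, GRCm38), which encodes a BMP family member, stood at 13.7 and 12.5 CPM with vehicle and 13.4 and 12.1 CPM with CCM, against 6.38 and 7.12 CPM under LA and 46.3 and 44.2 CPM under TCM. The TCM libraries lay above all others and the LA libraries below all others. Its log2 FC was 1.82 ± 0.12 (SE) for TCM against CCM (edgeR adjusted P = 1.16e-05) and −0.94 ± 0.15 for LA against vehicle (adjusted P = 0.00937), and these effects differed by 2.76 ± 0.19 (adjusted P = 3.91e-05). The LA call was lost without any single vehicle or LA library (adjusted P from 0.0566 to 0.0834), with a log2 FC between −1.03 and −0.87.

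Inhbb, the gene of the activin βB subunit, measured 21.8 and 28.4 CPM with vehicle and 13.4 and 14.5 CPM with CCM, against 17.7 and 17.5 CPM under LA and 45.8 and 45.9 CPM under TCM. Here the 2 controls did not overlap. TCM was above CCM by a log2 FC of 1.72 ± 0.14 (edgeR adjusted P = 2.29e-05) and above vehicle by 0.86 ± 0.13 (adjusted P = 0.00112), whereas CCM was below vehicle by −0.85 ± 0.14 (adjusted P = 0.0287), a call that was lost without any one of the 4 libraries concerned (adjusted P from 0.0762 to 0.294). LA against vehicle gave −0.51 ± 0.14, which missed the threshold (adjusted P = 0.0885), and the TCM and LA effects differed by 2.23 ± 0.20 (adjusted P = 6.76e-05). Inhba, the gene of the activin βA subunit, stood at 205 and 195 CPM with vehicle and 163 and 179 CPM with CCM, against 156 and 175 CPM under LA and 280.2 and 273 CPM under TCM. Only the TCM libraries were set apart upward. The log2 FC was 0.69 ± 0.10 with TCM (adjusted P = 0.000533) and −0.27 ± 0.10 with LA (adjusted P = 0.209), a difference of 0.96 ± 0.14 (adjusted P = 0.00107).

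Tgfb3 (chr12:86056745-86079041, minus strand) was the most strongly lowered ligand gene. It stood at 323 and 426 CPM with vehicle and 329 and 331 CPM with CCM, against 248 and 349 CPM under LA and 115 and 119.9 CPM under TCM, so TCM lay below the other 6 libraries, which overlapped between conditions. The log2 FC was −1.49 ± 0.17 with TCM (edgeR adjusted P = 0.000133) and −0.33 ± 0.16 with LA (adjusted P = 0.391). The difference of −1.16 ± 0.23 (adjusted P = 0.00795) was lost without either TCM library (adjusted P = 0.0883 and 0.0596). Of its exon length, 12.4% overlaps genes on the opposite strand, and the strand setting of the counting was not given in the sources used here. Tgfb1 was lower on a smaller scale, at 28.5 and 26.2 CPM with CCM and 13.8 and 18 with TCM, with 19.4 and 27.8 for vehicle and 18.7 and 21.3 for LA. Its log2 FC with TCM was −0.78 ± 0.18 (adjusted P = 0.0114), and it was no longer called without CCM replicate 1 (−0.72, adjusted P = 0.0817) or with vehicle in place of CCM. Tgfb2 was not called in any comparison and held 115 to 139 CPM in the 8 libraries.

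Bmp4, the main BMP gene of these cells, measured 436 and 429 CPM with vehicle and 386 and 400.2 CPM with CCM, against 531 and 482 CPM under LA and 520.3 and 536 CPM under TCM. Its log2 FC with TCM was 0.43 ± 0.10 (edgeR adjusted P = 0.0092), a call that ended with total-count scaling (0.29), with vehicle as the control (0.29) and without either CCM library (adjusted P = 0.113 and 0.0705). With LA it was 0.23 ± 0.10 (adjusted P = 0.303), and the LA libraries lay above both vehicle libraries. Gdf11, a ligand close to myostatin, stood at 31.0 and 30.9 CPM with vehicle and 29.6 and 32.4 CPM with CCM, against 29.1 and 29.9 CPM under LA and 19.3 and 23.4 CPM under TCM. The TCM libraries lay below the 6 others, and TCM gave a log2 FC of −0.54 ± 0.12 (adjusted P = 0.0107), lost without CCM replicate 2 (−0.47, adjusted P = 0.0945).

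Among the genes that process or store ligands, Lrrc32 (chr7:98489283-98502181, plus strand), whose product GARP tethers latent TGFβ to the cell surface, was the gene with opposite calls. It stood at 49.3 and 47.5 CPM with vehicle and 37.4 and 38.8 CPM with CCM, against 19.1 and 19.6 CPM under LA and 46.1 and 58.1 CPM under TCM. LA was below every other library, by a log2 FC of −1.32 ± 0.13 against vehicle (edgeR adjusted P = 0.000532) and −0.98 ± 0.13 against CCM (adjusted P = 0.00921). TCM was above CCM by 0.45 ± 0.12 (adjusted P = 0.0224) but overlapped vehicle, from which it differed by 0.11 ± 0.12 (adjusted P = 0.583), and the TCM call was also lost without either CCM library or without TCM replicate 2 (adjusted P from 0.0733 to 0.153). The LA and TCM effects differed by 1.77 ± 0.18 (adjusted P = 0.000121). Bmp1, a metalloproteinase that cleaves procollagens and the BMP antagonist chordin, stood at 224 and 213 CPM with vehicle and 257 and 235 CPM with CCM, against 190.0 and 183 CPM under LA and 144 and 145 CPM under TCM. No 2 conditions overlapped, and TCM lowered the gene by a log2 FC of −0.77 ± 0.09 (adjusted P = 0.00019), while LA against vehicle gave −0.23 ± 0.09 (adjusted P = 0.266). Their difference was −0.54 ± 0.13 (adjusted P = 0.0211), lost without any single vehicle, CCM or LA library (adjusted P from 0.0543 to 0.142).

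The 4 LTBP genes were not called in any comparison. Ltbp3 was the most abundant, at 593 to 686 CPM in the vehicle and CCM libraries and 782 and 857 CPM with TCM, and its log2 FC of 0.387 fell just short of the fold threshold at an edgeR adjusted P of 0.0221. Ltbp2 was variable between replicates, with 2.01 and 5.54 CPM with vehicle and 4.61 and 12.1 CPM with LA, and its LA log2 FC of 1.18 ± 0.46 had an adjusted P of 0.263.

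The extracellular antagonists changed in both directions. Grem1 (chr2:113746164-113758646, minus strand), the gene of Gremlin, which binds BMP2 and BMP4, had 14 and 58 counts with vehicle and 59 and 42 counts with CCM, against 18 and 67 counts under LA and 227 and 253 counts under TCM, or 23.9 and 27.6 CPM with TCM and at most 5.36 CPM elsewhere. Both TCM libraries were above all others. The log2 FC for TCM against CCM was 2.51 ± 0.35 (edgeR adjusted P = 0.000551) and that for LA against vehicle 0.03 ± 0.46 (adjusted P = 0.991), and the vehicle and LA replicates each spread over more than the gap between these conditions. The difference of 2.48 ± 0.59 (adjusted P = 0.0209) fell to 1.30 without vehicle replicate 2 (adjusted P = 0.317), and it was also lost under DESeq2 (adjusted P = 0.0801) and without either CCM library, LA replicate 1 or either TCM library (adjusted P from 0.0502 to 0.0908). Nog, the gene of the BMP antagonist Noggin, moved the other way, from 3.87 and 4.39 CPM with CCM to 1.26 and 0.981 CPM with TCM, against 4.24 and 7.21 with vehicle and 4.02 and 6.41 with LA. TCM was below the other 6 libraries, with a log2 FC of −1.86 ± 0.41 (adjusted P = 0.00793), and LA overlapped vehicle (−0.11 ± 0.29, adjusted P = 0.928). The difference between these effects was only just called (−1.76 ± 0.50, adjusted P = 0.0498), and it was lost without any 1 of 6 libraries (adjusted P from 0.0564 to 0.198) and under DESeq2.

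Bmper (chr9:23223076-23485200, plus strand), whose secreted product binds BMPs and modulates their activity, was lowered by both treatments and more by LA. It stood at 93.5 and 105 CPM with vehicle and 76.8 and 82.0 CPM with CCM, against 27.6 and 33.0 CPM under LA and 51.6 and 53.0 CPM under TCM, so the 4 conditions did not overlap. The log2 FC was −1.70 ± 0.12 with LA (edgeR adjusted P = 0.000182) and −0.60 ± 0.11 with TCM (adjusted P = 0.0034), and these effects differed by 1.10 ± 0.16 (adjusted P = 0.00133). LA also lay below CCM, by −1.38 ± 0.12 (adjusted P = 0.0016). The 3 Bmper calls for TCM, for LA and for their difference held in every alternative analysis except a log2 FC threshold of 1, which the TCM value does not reach. Nbl1, the gene of a DAN family BMP antagonist, was lowered by both at a smaller size, from 31.5 and 35.8 CPM with vehicle to 17.2 and 22.9 with LA and from 32.6 and 31.5 CPM with CCM to 24.0 and 23.1 with TCM. The log2 FC was −0.73 ± 0.14 with LA (adjusted P = 0.0243) and −0.44 ± 0.14 with TCM (adjusted P = 0.0444), with a difference of 0.28 ± 0.20 (adjusted P = 0.425). The LA call was lost without vehicle replicate 1, vehicle replicate 2 or LA replicate 1 (adjusted P from 0.0849 to 0.217), and the TCM call without any vehicle, CCM or TCM library (adjusted P from 0.0508 to 0.206).

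Fst, the gene of the activin antagonist Follistatin, stood at 212 and 319 CPM with vehicle and 214 and 209 CPM with CCM, against 112 and 154 CPM under LA and 281 and 221 CPM under TCM. The LA libraries were the lowest, and vehicle replicate 2 was the highest of all 8. LA against vehicle gave a log2 FC of −1.0 ± 0.20 (edgeR adjusted P = 0.0267), but −0.67 without vehicle replicate 2 (adjusted P = 0.229) and −0.67 against CCM (adjusted P = 0.217), and leaving out either LA or either TCM library also ended the call (adjusted P from 0.0535 to 0.186). TCM against CCM gave 0.25 ± 0.19 (adjusted P = 0.404), and the difference from LA of 1.25 ± 0.28 (adjusted P = 0.0154) was lost without any 1 of 6 libraries (adjusted P from 0.0533 to 0.202). Fstl3, a Follistatin-like activin antagonist, was at 16.2 to 19.0 CPM in the 6 libraries without TCM and at 27.2 and 27.5 with TCM. It rose by a log2 FC of 0.72 ± 0.12 (adjusted P = 0.00169), while LA against vehicle gave −0.11 ± 0.12 (adjusted P = 0.787). The difference of 0.83 ± 0.17 (adjusted P = 0.0109) was lost without vehicle replicate 1 (0.75, adjusted P = 0.0575) or CCM replicate 1 (0.79, adjusted P = 0.0696), and 47.3% of the exon length of Fstl3 overlaps Prss57 on the opposite strand, whose reads cannot be told apart from its own if strand was not used in counting. The 2 remaining antagonist genes that were tested, Fstl1 at 2745 to 3658 CPM and Twsg1 at 122 to 161 CPM, were not called in any comparison.

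**Figure D3:**
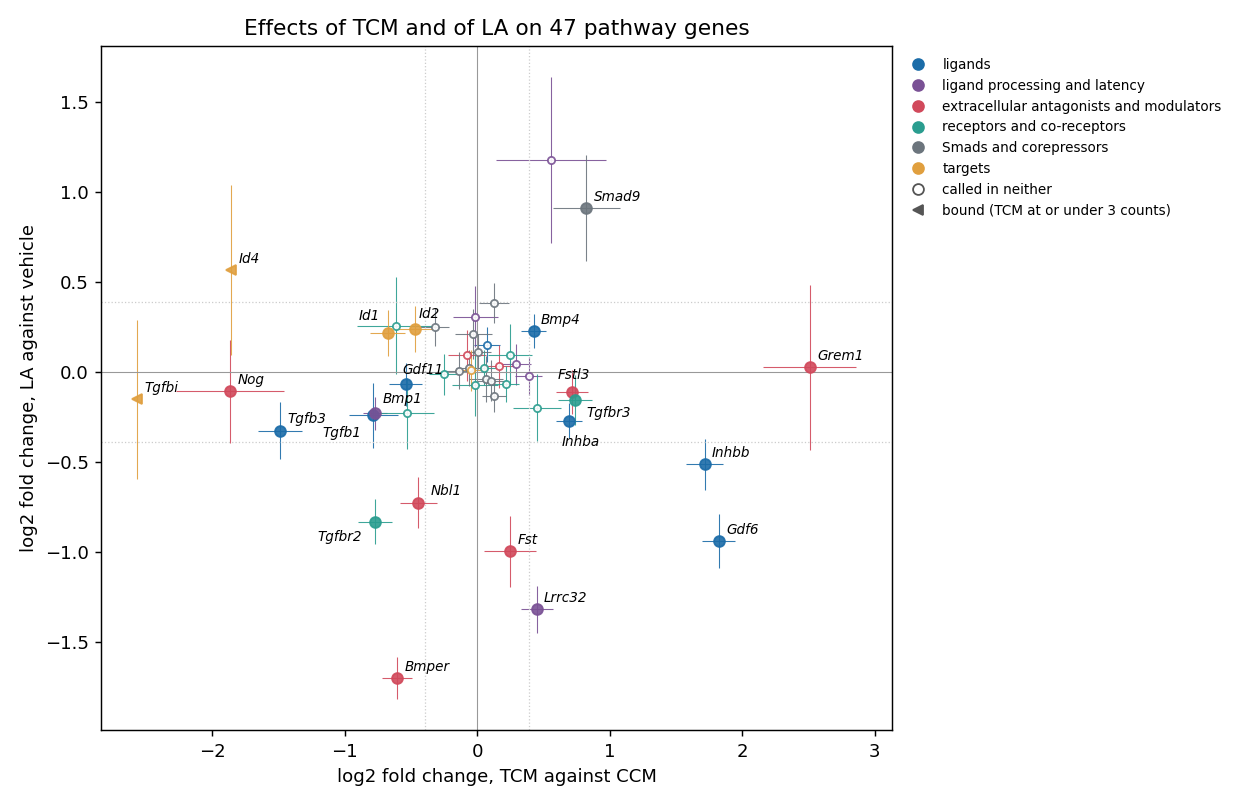
Each point is 1 of the 47 genes, with the log2 FC of TCM against CCM on the x axis and of LA against vehicle on the y axis, bars of 1 SE in each direction and colors for roles. Filled, named points were called in at least 1 of the 2 comparisons, dotted lines stand at a log2 FC of 0.39 in either direction, and triangles mark Id4 and Tgfbi at their lower bounds. Gdf6 and Lrrc32 lie at lower right, Bmper, Nbl1 and Tgfbr2 at lower left, and no filled point called for LA lies above 0.

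Most receptor genes were not called. Tgfbr2 (chr9:116084293-116175360, minus strand), the gene of the type II TGFβ receptor that binds the ligand, was the only receptor called with LA. It stood at 214 and 247 CPM with vehicle and 180 and 156 CPM with CCM, against 126 and 133 CPM under LA and 86.9 and 110.1 CPM under TCM, with no overlap between conditions. The log2 FC was −0.83 ± 0.13 with LA (edgeR adjusted P = 0.00826) and −0.77 ± 0.13 with TCM (adjusted P = 0.00173), and the difference of 0.06 ± 0.18 was not called (adjusted P = 0.881). CCM lay below vehicle without a call (−0.46 ± 0.13, adjusted P = 0.112), and LA against CCM gave −0.37 ± 0.13 (adjusted P = 0.297). The LA call was also lost without vehicle replicate 2 or either LA library (adjusted P from 0.0619 to 0.113).

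Tgfbr3, the gene of betaglycan, a co-receptor that presents TGFβ2 and binds inhibin, was at 11.9 to 14.6 CPM in the 6 libraries without TCM and at 22.1 and 25.2 CPM with TCM. It rose by a log2 FC of 0.74 ± 0.13 (edgeR adjusted P = 0.00236), and its difference from LA was 0.90 ± 0.19 (adjusted P = 0.0122), lost without vehicle replicate 1, CCM replicate 1 or LA replicate 2 (adjusted P from 0.0502 to 0.0727). Tgfbr1, the type I TGFβ receptor, was lower with TCM in both libraries than in any CCM library, at 24.2 and 28.0 against 38.4 and 37.0 CPM, but was not called (−0.53 ± 0.20, adjusted P = 0.0879). With the replicate number as a block it was (−0.54, adjusted P = 0.0302). The 7 other receptor and co-receptor genes were not called in any comparison. Bambi, a decoy receptor, had the most negative TCM value among the genes of this role that were not called (−0.61 ± 0.29, adjusted P = 0.162), at 2.57 to 4.62 CPM over the 8 libraries, and Rgmb, a BMP co-receptor, had the most positive (0.45 ± 0.18, adjusted P = 0.108). The BMP receptor genes Bmpr1a, Bmpr2 and Acvr1 and the activin receptor gene Acvr2a had TCM log2 FCs between −0.25 and 0.25. Eng, a TGFβ and BMP co-receptor, lay in the same range, and the SEs of these genes reached 0.17.

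With TCM, the Smads and corepressors had the smallest median size of change of the 6 roles, at 0.12 on the log2 scale. Smad1 to Smad7, which include the signal-carrying Smads and the inhibitory Smad6 and Smad7, were called in no comparison, with TCM log2 FCs between −0.13 and 0.13. With LA they ran from −0.13 for Smad1 to 0.38 ± 0.11 for Smad6 (edgeR adjusted P = 0.111), which had 100.4 and 121 CPM with vehicle and 138 and 150.1 with LA. Smad9 was the exception among the Smads with TCM and the least abundant. It stood at 1.45 and 1.94 CPM with vehicle and 3.20 and 2.58 CPM with CCM, against 2.72 and 3.59 CPM under LA and 4.84 and 5.45 CPM under TCM, and the log2 FC with TCM was 0.82 ± 0.25 (adjusted P = 0.0382). This call was lost under DESeq2 (adjusted P = 0.154), with total-count scaling and without any CCM or TCM library (adjusted P from 0.0525 to 0.214). With LA the value was 0.91 ± 0.30 (adjusted P = 0.161). Skil, the gene of the corepressor SnoN, was not called with TCM (−0.32 ± 0.11, adjusted P = 0.0618) or LA (0.25 ± 0.11, adjusted P = 0.318), but these effects, of opposite sign, differed by −0.57 ± 0.15 (adjusted P = 0.0384). It stood at 56.8 and 57.6 CPM with vehicle and 57.0 and 52.0 CPM with CCM, against 63.2 and 72.4 CPM under LA and 41.9 and 45.5 CPM under TCM, and the difference was lost under DESeq2 and without any 1 of 5 libraries (adjusted P from 0.0827 to 0.187). Ski, its relative, was not called.

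Of the 5 target genes, 4 were lower with TCM, Id3 was not called, and none was called with LA. Id1 (chr2:152736251-152737410, plus strand), which encodes an inhibitor of basic helix-loop-helix transcription factors, stood at 69.2 and 74.6 CPM with vehicle and 69.1 and 76.2 CPM with CCM, against 85.5 and 81.9 CPM under LA and 51.9 and 39 CPM under TCM. The TCM libraries were the lowest and the LA libraries the highest. The log2 FC was −0.67 ± 0.13 with TCM (edgeR adjusted P = 0.00435) and 0.22 ± 0.13 with LA (adjusted P = 0.513), and the difference was −0.89 ± 0.18 (adjusted P = 0.0103), which missed the threshold without vehicle replicate 1 (adjusted P = 0.0557) or CCM replicate 2 (adjusted P = 0.0534). Id2, of the same family, stood at 36.3 and 41.2 CPM with vehicle and 38.2 and 43.7 CPM with CCM, against 42.4 and 48.8 CPM under LA and 32.1 and 27 CPM under TCM. Again the TCM libraries were the lowest, whereas LA overlapped CCM. The log2 FC with TCM was −0.47 ± 0.13 (adjusted P = 0.0288), with a difference from LA of −0.71 ± 0.19 (adjusted P = 0.0345); the TCM call was lost with vehicle in place of CCM and without either CCM library or TCM replicate 2 (adjusted P from 0.0615 to 0.202), and the difference without any 1 of 5 libraries (adjusted P from 0.0629 to 0.149). Id3 was by far the most abundant of the 4 Id genes and was not called, at 341 to 424 CPM over the 8 libraries and a TCM log2 FC of −0.05 ± 0.12 (adjusted P = 0.8).

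Id4 and Tgfbi, a TGFβ-induced matrix protein gene, were near the limit of detection and fell to the floor with TCM. Id4 had 5 and 9 counts with vehicle and 14 and 12 counts with CCM, against 7 and 17 counts under LA and 0 and 1 counts under TCM. It was at least 3.62-fold lower with TCM than with CCM, against a floor of 3 counts per library, with an edgeR adjusted P of 0.00421. Only both CCM libraries and LA replicate 2 held 10 counts or more, so Id4 entered the test through the control of this comparison. Its call therefore adds no separate support to the count of lowered targets. Tgfbi had 21 and 16 counts with vehicle and 27 and 16 counts with CCM, against 9 and 30 counts under LA and 0 and 2 counts under TCM, and was at least 5.91-fold lower, with an adjusted P of 0.00495. In both genes the TCM libraries were below the 6 others, and LA overlapped vehicle. The TCM and LA effects differed for Id4 (adjusted P = 0.0101) and Tgfbi (adjusted P = 0.0281). The difference was lost for Id4 without LA replicate 2 (adjusted P = 0.056) and for Tgfbi without vehicle replicate 2, CCM replicate 1, LA replicate 2 or TCM replicate 1 (adjusted P from 0.0651 to 0.14).

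With TCM, 4 of the 5 target genes were lower and Id3 was not called. RefSeq's promoter table for GRCm38 held Id2, Id4, Tgfbi and Id3, but no window for Id1, the called target with the highest level. The lowered targets can therefore not be set against Id3 as a whole. The 4 promoters found are shown, each as the 250 bases before the transcription start on the gene's own strand. Capitals mark GGCGCC, a palindromic element bound by BMP-activated Smads, and the windows were also searched on both strands for CAGACA, which contains the CAGA box bound by Smad3, without a match in these 4.
Id2, chr12:25096093-25096342, minus strand: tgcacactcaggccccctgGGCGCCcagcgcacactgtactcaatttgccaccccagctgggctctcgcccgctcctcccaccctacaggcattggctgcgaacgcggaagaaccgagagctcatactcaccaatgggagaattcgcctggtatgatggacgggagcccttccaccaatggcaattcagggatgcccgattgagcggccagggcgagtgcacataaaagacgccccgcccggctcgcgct
Id4, chr13:48260866-48261115, plus strand: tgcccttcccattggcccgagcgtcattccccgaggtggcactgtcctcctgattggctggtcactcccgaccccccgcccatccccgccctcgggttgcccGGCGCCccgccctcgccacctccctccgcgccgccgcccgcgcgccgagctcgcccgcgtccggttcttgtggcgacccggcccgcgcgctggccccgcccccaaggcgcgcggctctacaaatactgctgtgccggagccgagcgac
Tgfbi, chr13:56609336-56609585, plus strand: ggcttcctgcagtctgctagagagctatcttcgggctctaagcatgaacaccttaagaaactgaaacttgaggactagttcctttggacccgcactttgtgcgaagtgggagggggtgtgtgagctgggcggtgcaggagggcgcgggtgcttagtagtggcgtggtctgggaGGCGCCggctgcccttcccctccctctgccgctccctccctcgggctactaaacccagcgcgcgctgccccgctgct
Id3, chr4:136143572-136143821, plus strand: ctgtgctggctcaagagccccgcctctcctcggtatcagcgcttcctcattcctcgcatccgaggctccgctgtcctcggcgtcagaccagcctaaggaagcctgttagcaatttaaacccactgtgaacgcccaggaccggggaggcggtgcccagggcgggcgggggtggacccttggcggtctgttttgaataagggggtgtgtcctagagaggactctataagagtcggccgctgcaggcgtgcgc
GGCGCC began 231 bases before the start in Id2, 148 bases before it in Id4 and 77 bases before it in Tgfbi, and was not in the window of Id3. Among all 32851 promoter windows of this length, 9.59% held GGCGCC and 17.1% held CAGACA, and among the 12015 windows of the genes tested 17.1% and 12.9% did. Of the 47 members, 34 had at least 1 window, 42 windows in all, of which 33.3% held GGCGCC and 9.52% held CAGACA. The windows with GGCGCC include those of Grem1, which was higher with TCM, and Nbl1, which was lower. The directions of all members with a match were not counted, and a link between match and direction was not tested. A match describes the letters of the window and is not evidence of binding.

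**Figure D4:**
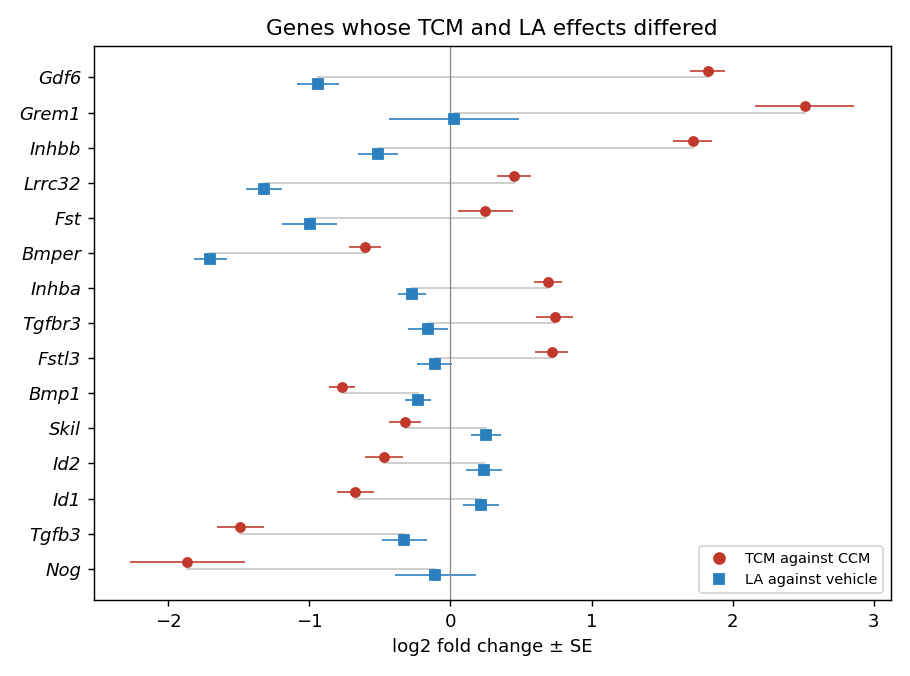
For 15 of the 17 genes whose TCM and LA effects differed, the log2 FC (x axis) of TCM against CCM (circles) and of LA against vehicle (squares) is drawn with bars of 1 SE, ordered by the difference. Id4 and Tgfbi, with TCM at or under 3 counts, are left out. Gdf6, Inhbb, Lrrc32, Fst, Inhba, Tgfbr3 and Fstl3 have TCM values above 0 and LA values below 0, and Bmper is negative in both with the larger fall for LA.

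Levels between genes were compared per kilobase of exon, with exon lengths from the GENCODE M21 annotation of GRCm38. With vehicle, Fstl1 was the highest at 618 ± 83.5 CPM per kb (SD, n = 2), followed by Id3 at 202 ± 3.46, Bmp4 at 192 ± 2.40 and Tgfb3 at 111 ± 21.6. Id3 and Bmp4 did not overlap within their SDs, but Smad6 at 34.5 ± 4.49 and Ski at 34.2 ± 2.61, neighbors further down the order, did. The lowest were Smad9 at 0.316 ± 0.0645 and Id4 at 0.181 ± 0.0503 CPM per kb. Of the TGFβ genes, Tgfb3 therefore stood above Tgfb2 at 20.7 ± 0.961 and Tgfb1 at 4.68 ± 1.18 CPM per kb, by more than the spread between replicates. Of the activin subunits, Inhba at 31.3 ± 1.09 CPM per kb stood above Inhbb at 5.89 ± 1.10. In bulk RNA, a lower level in every cell cannot be told apart from fewer cells that express the gene.

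A wider list of 103 further ligands, antagonists, receptors, regulators and targets of these pathways held 60 genes that could be tested. Between TCM and CCM, 12 of them were called, 5 higher and 7 lower, or 20% beside 19.1% of all genes. The antagonist and modulator genes among them were Crim1, a transmembrane BMP-binding protein, which rose from 428 and 421 CPM to 984 and 1246 CPM (log2 FC 1.39 ± 0.12, edgeR adjusted P = 3.28e-05), Aspn, the gene of the TGFβ-binding proteoglycan asporin, which fell from 13.3 and 10 CPM to 2.21 and 2.18 CPM (−2.41 ± 0.48, adjusted P = 0.00482), and Dcn, the gene of decorin, which also fell (−0.86 ± 0.16, adjusted P = 0.00342). Among 18 further target genes, 3 were higher and 3 lower. Hey1, a transcription factor gene that responds to Notch and BMP, fell from 30.9 and 30.3 CPM to 3.26 and 2.07 CPM (−3.51 ± 0.32, adjusted P = 3.77e-05). Cdkn1a, the gene of the cell cycle inhibitor p21, fell by 0.77 on the log2 scale (adjusted P = 0.000378). Cdkn2b (0.52) and Zeb1 (0.45) were called higher and Ldlrad4 (−0.66) lower. With vehicle in place of CCM, 1 of the 18 was called higher and 4 lower. Cdkn2b (−0.24, adjusted P = 0.268) and Zeb1 (0.33, adjusted P = 0.057) were then not called. Called targets thus had mixed directions against CCM, but most were lower against vehicle. Of 28 further signal regulators, 2 were called, both lower (Tgif1 and Tob1), and of 3 further receptors 1 was higher (Neo1). The 4 further ligands that could be tested were not called.

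Between LA and vehicle, 1 of these 60 genes (1.67%, beside 2.55% of all genes) was called, Pmepa1, an inhibitor of TGFβ signaling that is itself induced by TGFβ, which was lower at 71.0 and 86.0 against 109 and 113 CPM (−0.49 ± 0.11, edgeR adjusted P = 0.038). Between CCM and vehicle, 1 was called (1.67%, beside 1.3% of all genes), Cdkn2b, which was lower with CCM (−0.76). The TCM and LA effects differed for 9 of the 60 genes (15%), 4 with the more positive value for TCM and 5 with the more negative, where 10.4% of all genes did.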

How the data were processed

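Poly(A) RNA of 8 samples of a mouse FRC line was sequenced with a directional kit. The authors aligned the reads to GRCm38 (Ensembl annotation) with STAR 2.7.0a and counted them per gene with featureCounts of Subread 2.0.1, per the labels, and deposited raw counts per gene. A second deposited table, normalized by its name, equals the raw counts for 100% of its 12137 genes and was not used further. Samples were grouped by their titles. The pathway members, the wider gene list and the markers were chosen with earlier results of these data known.

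The 12137 genes kept (10 counts or more in 3 or more libraries) were fitted with edgeR 4.0.16 in R 4.3.3 (TMM, then robust glmQLFit and glmQLFTest), using 1 mean per condition over all 8 libraries; the main fit has no replicate block. The test was tried on simulated data first. The SE was taken as the absolute log2 FC over the root of the F statistic. TMM factors ran from 0.938 to 1.04 and the biological coefficient of variation was 0.0903. Differences between effects are (TCM minus CCM) minus (LA minus vehicle). Floors are 3 counts per library and cover counting error only, since reads carried no molecular identifiers. Promoters came from RefSeq and exon overlaps from GENCODE M21, by symbol; 36 of 42 members' windows, extended past the start, ended in an annotated transcript on the same strand over 40 bases. Members called in at least 1 of 4 comparisons were named with all values, others by range or as extremes of their role, and up to 5 called genes of the wider list per group. Alternatives were DESeq2 1.42.0 and its size factors, total counts, other filters and fold thresholds, only the libraries compared, the other control, a replicate block, and each library left out. The values of 1 gene of the wider list are not reported here.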

Additional observations from a re-analysis of the deposited data

How the results depend on the processing

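Of 45 calls of a member in a comparison, 21 held under every alternative that tested the gene, other than a log2 FC threshold of 1. They were 14 of the TCM calls and 2 of the LA calls (Bmper and Lrrc32). A further 5 were calls for the difference between these effects, and 0 were CCM calls. The TCM calls of Id4, Tgfbi and Nog are among the 14, but the filter of 10 counts in every library left these genes untested. The single-gene values under an alternative numbered 1015 and cover only the 56 pairs of gene and comparison called under at least 1 setting. Of these values, 1 changed direction: Inhbb with LA was 0.34 against CCM (edgeR adjusted P = 0.447). Pairs never called were left out, and they could also change direction: Nog with LA was −0.11 against vehicle and 0.38 against CCM. A log2 FC threshold of 1 left 7 members called for TCM against CCM, where 760 of all genes were. It left 2 for LA against vehicle (86 of all genes), 0 for CCM against vehicle (19) and 10 for the difference (634). For LA, CCM in place of vehicle left 3 members, where 76 of all genes were called. For CCM against vehicle, no filter on low counts gave 2 members and 584 of all genes. For the same comparison, a fit of only the libraries compared gave 2 members and 679 of all genes, against 1 and 158 in the main fit. For TCM against CCM such a fit gave 17 members and 1731 of all genes, against 21 and 2314. The TCM calls of Gdf11, Id2, Lrrc32, Nbl1 and Smad9 were lost in it. For LA against vehicle it gave 5 members and 454 of all genes, against 6 and 310, and the call of Fst was lost. With 1 library left out at a time, 15 to 22 members were called for TCM, 2 to 6 for LA, 0 to 2 for CCM and 8 to 14 for the difference. The LA count fell to 2 without vehicle replicate 2 or LA replicate 1 and to 3 without LA replicate 2, while the calls over all genes fell from 310 to 57, 74 and 71. The CCM count was 0 without any vehicle or CCM library, where all genes gave 0 to 5 calls in place of 158, and 2 without either TCM library, where they gave 497 and 494. The count for the difference was 10 without vehicle replicate 1, 11 without vehicle replicate 2, 8 without CCM replicate 1, 10 without CCM replicate 2 and 10 without LA replicate 2, while the calls over all genes fell from 1268 to between 629 and 776. Why these counts moved was not tested. A lone library left in a condition was assumed to vary like the others.

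Replicate numbers were not taken to pair the libraries, since the labels give no shared source and not every correlation was positive. Deviations of same-numbered libraries from their condition means correlated over the genes tested at 0.353 between vehicle and LA and at 0.112 and 0.106 between TCM and each of these, but CCM correlated negatively with TCM (−0.242), LA (−0.0813) and vehicle (−0.0406). With the replicate number as a block, 22 members were called for TCM, 6 for LA, 1 for CCM and 17 for the difference. Over all genes, the calls in this order were 2367, 356, 193 and 1316, against 2314, 310, 158 and 1268 in the main fit. With the CCM numbers crossed in that block, a pairing added after seeing the data, the member counts were 22, 8, 2 and 18. Those over all genes were then 2675, 596, 457 and 1938. Genes under 3 counts, 0.211 to 0.354 CPM, could not be measured at this depth.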

Other observations

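Some members differed between the 2 libraries of a condition in a way that vehicle and LA shared. In the vehicle libraries, 17 of the 47 genes were more than 1.2 times higher in replicate 2 than in replicate 1, and in the LA libraries 15 were. Of these, 12 were the same genes: Tgfb3, Ltbp1, Ltbp2, Grem1, Nog, Fst, Fstl1, Tgfbr1, Bmpr2, Rgmb, Smad9 and Id4. No member passed this ratio in the CCM libraries, and 10 did with TCM. The share of all genes passing it was not counted, so these counts are not read as particular to the members. Deviations of same-numbered vehicle and LA libraries also correlated over all genes tested, at 0.353. Across the 47 genes, the log2 ratio of the replicates (0.5 CPM added) correlated between vehicle and LA at r = 0.651 and between CCM and TCM at −0.508, as a description, since genes of 1 library share its depth and preparation. For Fst the ratio was 1.51 with vehicle and 1.37 with LA, 0.981 with CCM and 0.786 with TCM. Its LA call is among those that ended when vehicle replicate 2 was left out.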
